A study of Mus musculus with 14 samples.

Results

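The genes described here are 7 genes best known from fat cells, read in mouse liver: Lpl, Fabp4, Plin1, Adipoq, Cfd, Retn and Adrb3. They were chosen by symbol, and all 7 were found among the 54532 genes of the table. In these livers they did not behave as a unit. Lpl and Fabp4 were higher in liver of knockout females than in wild-type females, Adrb3 was lower in knockout liver of both sexes, Cfd differed between wild-type males and females, and Adipoq, Plin1 and Retn stayed at or near 0 counts. The name adipocyte-type therefore describes where these genes are best known, not cells that the data show.

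Fat cells store triglyceride in a large lipid droplet and release it as fatty acids when energy is needed. Plin1 coats that droplet and controls the access of lipases, Adrb3 is the receptor through which noradrenaline starts the release, and Fabp4 carries fatty acids in the cytosol. Lpl is a secreted lipase that frees fatty acids from circulating lipoproteins, and Adipoq, Cfd and Retn are hormones or enzymes that fat cells secrete. Adult hepatocytes make little of most of these, but hepatocytes that store fat can switch on some of the programme under the nuclear receptor PPAR-gamma. Fabp4 and Lpl are also made by macrophages, and Fabp4 by capillary endothelium.

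Liver RNA came from C57BL/6J mice, a common inbred strain, at 52 weeks of age. The Abcb11-/- mice lack a working gene for the pump that exports bile salts into bile. The 14 libraries form 5 groups: livers of wild-type females (numbered 2 and 3, n = 2), non-tumour tissue of Abcb11-/- females (n = 3), tumour tissue of Abcb11-/- females (n = 3), livers of wild-type males (n = 3) and livers of Abcb11-/- males (n = 3). The labels do not say whether tumour and non-tumour tissue of 1 number came from 1 mouse, which part of Abcb11 was removed, or how tumours were dissected. Where nothing says that libraries are separate animals, p-values measure the spread between these libraries only, which may be partly technical.

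Library totals ran from 14745140 to 19480538 counts, so that 1 count is worth 0.0452 to 0.0744 CPM (a count scaled to the size of its library, here with TMM factors). Abcb11 itself ran from 270 to 489 CPM in the wild-type libraries of both sexes and from 17.9 to 104 CPM in the 9 knockout libraries. No library thus went against its genotype label, and the labels of sex and tumour were not checked in this way. Within the knockout, Abcb11 was at 17.9 to 35.9 CPM in non-tumour tissue, 18.0 to 34.3 CPM in tumours and 62.1 to 104 CPM in males. Its log2 fold change in non-tumour females minus that in males was −1.99 ± 0.49 (edgeR adjusted p = 0.0181), so the loss of Abcb11 RNA itself was unequal. The 8 hepatocyte markers, which include Alb, summed to between 32312 and 92594 CPM in every library, so all 14 libraries are liver by this measure. Of 17874 genes tested, the share called in each comparison is given where members are first counted. The wild-type female group of 2 enters 4 of the 6 comparisons, and leaving out wild-type female 3 reduced the genes called in non-tumour tissue against wild type from 743 to 17.

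Adipoq, Plin1 and Retn, the members most restricted to fat cells, were close to the detection limit. Adipoq, the hormone adiponectin, had 10 counts in tumour 2 and 0 in the other 13 libraries. A count of 0 allows a level of up to 0.136 to 0.223 CPM, depending on the library (3 counts, counting error only). Plin1 had 10 counts in tumour 2, 3 in knockout male 1, 2 in non-tumour 3, 1 in wild-type female 3 and 0 in 10 libraries. Retn, the hormone resistin, had 15 counts in tumour 2, 6 in tumour 1, 6 in wild-type male 1, 1 in wild-type female 2, 1 in non-tumour 1 and 0 in 9 libraries. All 3 genes were thus highest in tumour 2, at 0.478 CPM for Adipoq and for Plin1 and 0.717 CPM for Retn. None of the 3 passed the low-count filter, so no test is given for them.

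**Figure D1:**
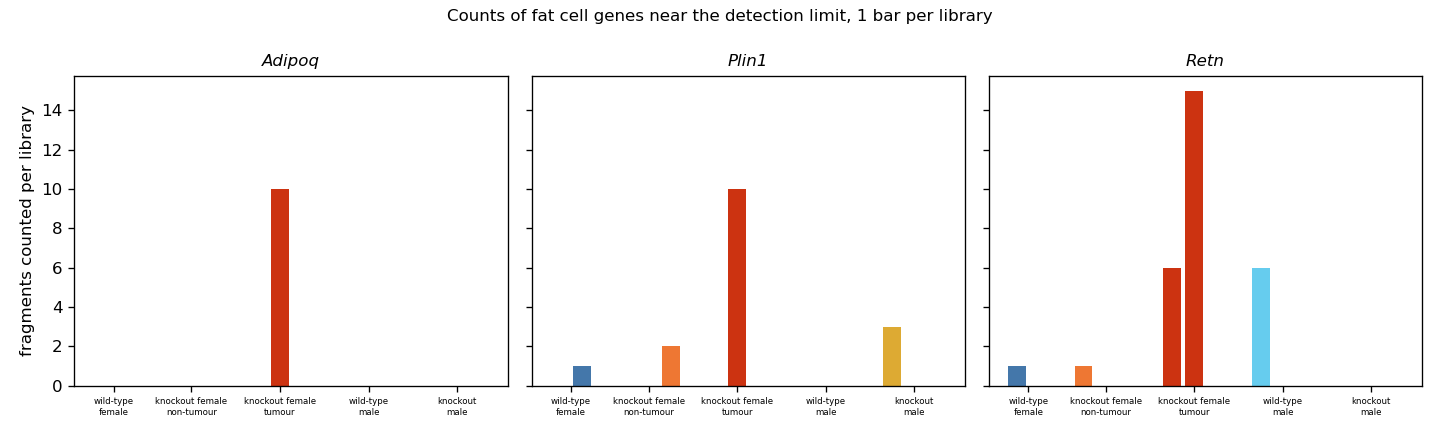
Fragments counted for Adipoq, Plin1 and Retn, with 1 bar per library in the order of its number within each of the 5 groups; a missing bar is 0 counts. Tumour 2 has the tallest bar in each panel, with 10, 10 and 15 counts.

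Other fat cell genes gave the same reading in part. Lep, the fat cell hormone leptin, had 0 counts in all 14 libraries, and so had the brown fat genes Dio2 and Zic1. Ucp1, the uncoupling protein that defines brown fat, had 1 count in non-tumour 1, 1 in tumour 3 and 0 elsewhere. Adig, a small fat cell protein, had 22 counts in tumour 2 and 0 to 7 in the others, and Aqp7, the glycerol channel of fat cells, had 94 counts in tumour 2 and 3 to 42 in the others. Markers of mesothelium and fat depot stroma summed to 81.3 to 128 CPM in tumours, against 115 to 125 CPM in non-tumour liver and 121 to 128 CPM in wild-type females. Dpp4 made up most of each of these sums, at 58.1 to 68.7, 65.4 to 91.9 and 97.9 to 106 CPM, so they mainly follow that gene. Within that list the mesothelial gene Upk3b had 44 counts in tumour 2 and at most 13 in any other library. Upk1b, Pi16, Pdgfra and Dpt were also highest in CPM in tumour 2, whereas Msln, Lrrn4, Wt1, Dpp4 and Gpm6a were not. Of the 6 skeletal muscle markers, Tnnc2 and Myh4 were at 0 in all libraries and the sum was at most 3.99 CPM. Tumour 2 thus stood above the rest in Adipoq, Plin1, Retn, Adig and Aqp7, at 10 to 94 counts each. None of the other white fat cell genes read here was highest in CPM in tumour 2. Slc2a4 had 34 counts there and 66 in non-tumour 3, Sncg 33 and 60 in tumour 3, and Nnat 3 and 42 in non-tumour 3. Without tumour 2 Lpl and Fabp4 were still called higher and Adrb3 lower in tumours against wild-type females (edgeR adjusted p = 0.00524, 0.00632 and 0.0435).

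Lpl (ENSMUSG00000015568, chromosome 8, 68880491 to 68907448, plus strand, GRCm38) had the largest rise of the called members in non-tumour tissue of knockout females. Its level was 13.3 and 10.4 CPM in wild-type females 2 and 3. In non-tumour knockout liver it was 523, 241 and 324 CPM in numbers 1, 2 and 3. Every non-tumour library thus lay far above both wild-type libraries, and the lowest of them had 4062 counts against 215 in the higher wild-type library. The log2 fold change was 4.94 ± 0.84 (edgeR adjusted p = 0.0126), a 30.6-fold rise. In this comparison 4.16% of all tested genes were called, 1.9% higher and 2.26% lower, and of the 4 members tested Lpl and Fabp4 were called higher and Adrb3 lower. The Lpl call was lost without wild-type female 2 (edgeR adjusted p = 0.0633) and without wild-type female 3 (edgeR adjusted p = 0.261), while the log2 fold change stayed between 4.62 and 5.16 with each library left out in turn.

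Tumours split into 2 levels of Lpl. It stood at 684 CPM in tumour 1, the highest of all 14 libraries, and at 108 and 97.0 CPM in tumours 2 and 3. Tumours 2 and 3 lay below every non-tumour library and above every male library. On the log2 scale the tumour of each number differed from its namesake by 0.39, −1.16 and −1.74 (numbers 1 to 3). Tumours and non-tumour liver overlapped, with a log2 fold change of −0.29 ± 0.59 (edgeR adjusted p = 0.983). Without tumour 1 it was −1.82 (edgeR adjusted p = 0.0444), so this comparison rests in large part on that library. With other libraries left out in turn the value reached up to 0.13, so its sign was not stable either. Against wild-type females, tumours were higher in every library (4.64 ± 0.82, edgeR adjusted p = 0.00536), where 9.61% of genes were called, 3.94% higher and 5.67% lower, and where Lpl and Fabp4 were called higher and Adrb3 lower. That call was lost without wild-type female 2 (edgeR adjusted p = 0.0503), without wild-type female 3 (edgeR adjusted p = 0.115) and with only the 2 groups in the fit (edgeR adjusted p = 0.0565).

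In males the level of Lpl was 19.7, 20.4 and 23.1 CPM in wild type and 46.3, 65.8 and 39.9 CPM in knockout liver. The male groups did not overlap, yet the difference of 1.27 ± 0.60 did not pass the test (edgeR adjusted p = 0.157). In this comparison 20.6% of genes were called; 14.3% were called higher and 6.32% lower, and the single member called was Adrb3. Lpl passed with only the male groups in the fit (edgeR adjusted p = 0.0139) and without tumour 1 (edgeR adjusted p = 0.00793), which enters through the shared estimate of the spread. Wherever knockout effects of females and males are compared, the knockout tissue is non-tumour tissue in females and liver in males. Sex and kind of tissue therefore cannot be told apart. The log2 rise in non-tumour knockout females was larger than the male one by 3.67 ± 0.95, and this difference passed (edgeR adjusted p = 0.0261). Lpl was the single member called, where 10.9% of all genes were, 2.2% with a positive and 8.68% with a negative sign. With upper-quartile scaling the calls over all genes were 608 positive and 1254 negative, against 393 and 1552 here. The call was lost without wild-type female 2 or 3, non-tumour 1, or knockout male 1 or 3 (edgeR adjusted p of 0.0557 to 0.140). By group mean Lpl rose in the order wild-type females, wild-type males, knockout males, tumours and non-tumour liver. Wild-type males lay above wild-type females without overlap, but by 0.83 ± 0.69 only (edgeR adjusted p = 0.415).

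**Figure D2:**
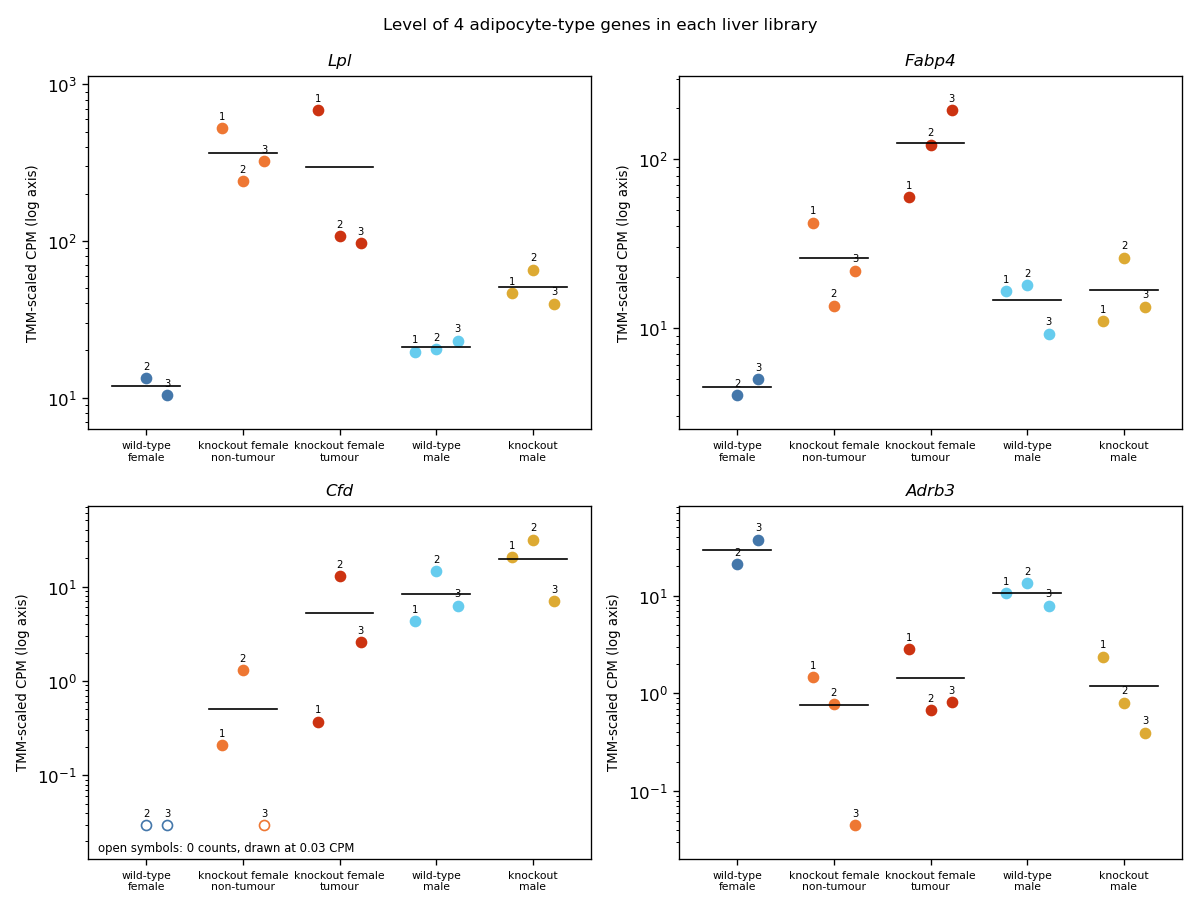
TMM-scaled CPM (log axis) of Lpl, Fabp4, Cfd and Adrb3 in the 14 libraries, grouped by genotype, tissue and sex; numbers are replicate numbers, lines are group means and open symbols are libraries with 0 counts. Non-tumour knockout liver has Lpl at 241 to 523 CPM against at most 13.3 CPM in wild-type females, and the 5 wild-type libraries have Adrb3 at 7.92 CPM or more against at most 2.84 CPM in all knockout libraries.

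The genes that act with Lpl did not rise with it as a group. Of 12 such partners, 2 were called lower and none higher in non-tumour knockout females, with a median log2 fold change of −0.14 against 0.00 over all genes. These were Apoc2, the apolipoprotein that activates lipoprotein lipase (−1.64 ± 0.40, edgeR adjusted p = 0.0355), and the endothelial lipase gene Lipg (−3.07 ± 0.72, edgeR adjusted p = 0.0318). Wild-type females 2 and 3 had Apoc2 at 21.8 and 24.0 CPM, against 8.13, 6.88 and 7.01 CPM for non-tumour 1, 2 and 3. The groups were thus well apart. Overlap with other annotated genes was looked up for the members only, so whether Apoc2 shares reads with another gene was not checked. In tumours against wild-type females Apoc2 (−1.78 ± 0.40) and the hepatic lipase gene Lipc (−1.28 ± 0.30) fell. In knockout males Angptl4, a secreted inhibitor of lipoprotein lipase, fell from 506 ± 107 to 162 ± 54.6 CPM (SD, n = 3 each; −1.64 ± 0.38, edgeR adjusted p = 0.00794), and Lipg rose (2.13 ± 0.66). None of the 12 was called between tumour and non-tumour tissue, where no gene of the table was.

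Fabp4 (ENSMUSG00000062515, chromosome 3, 10204088 to 10208576, minus strand) had its highest group mean in tumours. Its level was 3.99 and 4.96 CPM in wild-type females 2 and 3, 42.1, 13.5 and 21.8 CPM in non-tumour 1, 2 and 3, and 59.4, 122 and 195 CPM in tumours 1, 2 and 3. The 3 female groups formed 3 separate steps without overlap. Non-tumour liver was 5.75-fold above wild type (log2 2.52 ± 0.60, edgeR adjusted p = 0.0355), and tumours were 28.0-fold above it (log2 4.80 ± 0.67, edgeR adjusted p = 0.00145). The tumour call held with each of the 14 libraries left out in turn and under all 8 other settings. The non-tumour call was lost without wild-type female 2 or 3 or non-tumour 1 or 3 (edgeR adjusted p of 0.0818 to 0.421), and with the replicate number as a block (edgeR adjusted p = 0.0725).

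Between tumour and non-tumour tissue Fabp4 differed by 2.28 ± 0.49 (log2), and this did not pass (unadjusted p = 0.000453, edgeR adjusted p = 0.665). In this comparison 0% of genes were called by edgeR, with 1217 genes at an unadjusted p under 0.05, and DESeq2 called 29, Fabp4 among them (DESeq2 adjusted p = 0.00333). Without tumour 1 Fabp4 also passed (edgeR adjusted p = 0.0395). By number, 1 to 3, the tumour exceeded its namesake by 0.50, 3.16 and 3.16, so that all 3 were positive and number 1 was much the smallest. With the replicate number as a block the value was 2.26 (edgeR adjusted p = 0.646).

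In males Fabp4 stood at 16.5, 18.0 and 9.23 CPM in wild type and 11.0, 26.1 and 13.4 CPM in knockout liver, which overlapped widely (0.21 ± 0.48, edgeR adjusted p = 0.794). The sign of this small difference turned without wild-type male 3 and without knockout male 2. Wild-type males lay above wild-type females without overlap, by 1.69 ± 0.58, just short of the threshold (edgeR adjusted p = 0.0511). That comparison passed under 6 of 8 other settings, with adjusted p between 4.77e-06 and 0.0469, and without non-tumour 1 or 2, tumour 1 or 3, wild-type male 3 or knockout male 2 (edgeR adjusted p of 0.0271 to 0.0407). The female knockout effect exceeded the male one by 2.31 ± 0.75 (edgeR adjusted p = 0.0646), which passed without non-tumour 2, tumour 1, wild-type male 3 or knockout male 2 (edgeR adjusted p of 0.0365 to 0.0392). By group mean the order was wild-type females, wild-type males, knockout males, non-tumour liver and tumours. The 2 male groups overlapped each other, and both overlapped non-tumour liver.

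Relatives of Fabp4 moved in both directions. Of 12 genes of the fatty acid binding protein and resistin families 6 could be tested, and none was called in the 3 comparisons of female groups. Fabp1, the main fatty acid carrier of hepatocytes, reached 3584 and 1994 CPM for wild-type females 2 and 3, against 990, 1316 and 98.6 CPM in non-tumour 1, 2 and 3. It was lower in each non-tumour library (−1.80 ± 0.73, edgeR adjusted p = 0.172), opposite in sign to Fabp4. Fabp2, the intestinal form, was at 18.5, 166 and 93.9 CPM in tumours 1, 2 and 3 against 14.9 to 28.7 CPM in non-tumour liver (a 4.01-fold difference, unadjusted p = 0.00627, edgeR adjusted p = 0.665). Fabp7, the form known from brain, was counted 19 and 5 times for wild-type females 2 and 3, against 113, 141 and 48 times for non-tumour 1, 2 and 3, a difference of 2.96 ± 0.84 just short of the threshold (edgeR adjusted p = 0.0600). It was called for the female knockout effect minus the male one (3.69 ± 1.05, edgeR adjusted p = 0.0368) and was higher in wild-type males than in wild-type females (2.57 ± 0.83, edgeR adjusted p = 0.0364). Fabp5, the epidermal form, was 3.27-fold higher in tumours than in wild-type females without overlap (edgeR adjusted p = 0.438).

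Markers of 2 other cell types that make Fabp4 or Lpl were read in the same libraries. The 16 macrophage markers summed to 243 to 392 CPM in wild-type females and 786 to 883 CPM in non-tumour liver. In tumours the sum was 1053 to 1541 CPM, and in wild-type and knockout males 287 to 452 and 380 to 525 CPM. Spp1 alone was at 354 to 488 CPM in non-tumour liver and 609 to 1269 CPM in tumours. Between tumour and non-tumour tissue 6 of the 16 log2 fold changes were positive and none was called. Their median was −0.18 against −0.01 over all genes. In non-tumour against wild-type females 4 of 16 were called higher and none lower, among them Csf1r, the receptor that macrophages need to survive (1.26 ± 0.28), Lgals3 (2.59 ± 0.57) and Trem2, a lipid receptor of macrophages (3.43 ± 0.87). The 17 endothelial markers summed to 196 to 203 CPM in wild-type females, 210 to 225 CPM in non-tumour liver, 272 to 427 CPM in tumours, 304 to 465 CPM in wild-type males and 192 to 210 CPM in knockout males. None of these was called in non-tumour against wild-type females, and 5 were called higher in tumours against wild-type females, among them Cdh5 (1.51 ± 0.37) and Sox17 (1.44 ± 0.39). The 2 male groups did not overlap in the endothelial sum and overlapped in Fabp4. In bulk tissue, more cells of a type and more RNA per cell cannot be told apart, and the part of these cells in Fabp4 and Lpl was not tested.

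Cfd (ENSMUSG00000061780, chromosome 10, 79890853 to 79892655, plus strand) encodes adipsin, which is complement factor D, the protease that starts the alternative complement pathway by cutting factor B. It had 0 counts in both wild-type female libraries. In wild-type males it was at 4.27, 14.5 and 6.26 CPM in numbers 1, 2 and 3, with 66 to 202 counts. Wild-type males were at least 22.8-fold higher than wild-type females, taking the lowest male library over a floor of 3 counts per female library (edgeR adjusted p = 0.0267). Between these groups 23.1% of genes were called; 7.03% were called higher in males and 16.1% lower, and Cfd was the single member called. The call was lost without wild-type female 2 (edgeR adjusted p = 0.121), without wild-type female 3 (edgeR adjusted p = 0.160) and with limma-voom (adjusted p = 0.0675).

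The start of the Cfd gene is shown because Cfd was the member that had 0 counts in wild-type females and 66 or more in each wild-type male, and those of Adipoq and Plin1 because these stayed near 0. RefSeq promoters were found for 4 of the 7 members, and each stretch holds the 250 bases before the transcript start that the RefSeq table uses, 5′ to 3′ on the gene's strand (GRCm38.p6; Cfd chr10:79890603-79890852, plus; Adipoq chr16:23146286-23146535, plus; Plin1 chr7:79732777-79733026, minus). For Cfd and Adipoq that start is the start of the annotated gene, whereas for Plin1 it lies within the gene, so that 127 of the 250 bases are inside it. Capitals mark matches to any of 4 motifs, searched on both strands.
Cfd: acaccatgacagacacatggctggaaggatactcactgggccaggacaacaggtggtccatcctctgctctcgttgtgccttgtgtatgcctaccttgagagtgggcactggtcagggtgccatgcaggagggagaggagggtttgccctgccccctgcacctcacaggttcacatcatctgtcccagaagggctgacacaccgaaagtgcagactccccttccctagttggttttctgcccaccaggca
Adipoq: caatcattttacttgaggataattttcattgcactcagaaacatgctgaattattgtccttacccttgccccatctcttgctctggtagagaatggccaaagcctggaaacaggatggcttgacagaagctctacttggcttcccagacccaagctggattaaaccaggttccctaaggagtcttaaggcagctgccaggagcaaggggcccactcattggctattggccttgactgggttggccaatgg
Plin1: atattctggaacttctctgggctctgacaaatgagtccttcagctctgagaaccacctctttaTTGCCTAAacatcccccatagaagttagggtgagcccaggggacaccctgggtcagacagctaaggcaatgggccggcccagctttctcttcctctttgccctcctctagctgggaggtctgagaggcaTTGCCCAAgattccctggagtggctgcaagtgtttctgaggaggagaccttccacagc

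The motifs were the TATA box (TATAAA), a STAT motif (TTCNNNGAA), a C/EBP motif (TTGCNNAA) and the direct repeat bound by PPAR-gamma with its partner RXR (AGGTCA on either side of any 1 base). They were present in 12.4%, 7.02%, 9.56% and 0.0335% of 32851 RefSeq promoters over the same 250 bases. Plin1 held 2 C/EBP matches, which start 187 and 58 bases before that transcript start, the nearer one within the annotated gene, and no other match. Cfd and Adipoq held no match to any of the 4 in this window, and the same was so for Retn.

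In knockout liver Cfd was not limited to males. It was at 0.210, 1.31 and 0 CPM in non-tumour 1, 2 and 3, at 0.371, 12.9 and 2.59 CPM in tumours 1, 2 and 3, and at 20.6, 31.2 and 6.95 CPM in knockout males 1, 2 and 3. All 3 knockout male libraries lay within or above the range of wild-type males, and of the tumours only number 2 lay within it. All 3 groups overlapped. Knockout and wild-type males differed by 1.23 ± 1.15 (edgeR adjusted p = 0.487). Tumours exceeded non-tumour liver by 3.44 ± 1.35 (unadjusted p = 0.0286, edgeR adjusted p = 0.698), by 1.62 without tumour 2 and by 5.64 without non-tumour 2, with differences of 0.85, 3.20 and 4.77 in numbers 1, 2 and 3. Against wild-type females every tumour library was higher, by at least 1.98-fold over the floor, and the test fell short (edgeR adjusted p = 0.0617). It passed without tumour 1 or non-tumour 2 or 3 (edgeR adjusted p of 0.0298 to 0.0498), with the block (edgeR adjusted p = 0.0184) and with DESeq2 (adjusted p = 0.000616). Non-tumour liver overlapped wild-type females, since number 3 also had 0 counts (edgeR adjusted p = 0.347).

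Of 12 genes for receptors of adipokines and for complement factors around Cfd none was called in the 3 comparisons of female groups or between wild-type males and females. Their median log2 change was nonetheless 0.93 in non-tumour females (9 of 12 positive), 0.78 in tumours against wild type (11 of 12 positive) and 0.76 in males (10 of 12 positive), against 0.00, 0.03 and 0.11 over all genes. C3ar1, a complement receptor of myeloid cells, was 4.16-fold higher in non-tumour than in wild-type females without overlap (edgeR adjusted p = 0.151). The adiponectin receptor gene Adipor1 rose in knockout males (0.90 ± 0.25, edgeR adjusted p = 0.0196) and was 2.02-fold that of wild type in non-tumour knockout females (edgeR adjusted p = 0.0581). Cfb, the substrate of factor D, had 0 to 38 counts per library in all groups, and its overlap with other annotated genes was not looked up.

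Adrb3 (ENSMUSG00000031489, chromosome 8, 27225776 to 27250616, minus strand) was the member that fell in knockout liver of both sexes. Its level was 21.1 and 37.3 CPM in wild-type females 2 and 3 and 1.47, 0.771 and 0.0452 CPM in non-tumour 1, 2 and 3, the last from 1 count. Tumours 1, 2 and 3 were at 2.84, 0.669 and 0.811 CPM. In males it was 10.7, 13.4 and 7.92 CPM in wild type and 2.38, 0.804 and 0.396 CPM in knockout liver. All 9 knockout libraries lay below all 5 wild-type libraries.

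The log2 fold change of Adrb3 was −5.27 ± 0.93 in non-tumour knockout females (edgeR adjusted p = 0.0141), a 38.6-fold fall. It was −4.36 ± 0.89 in tumours against wild-type females (edgeR adjusted p = 0.0103) and −3.17 ± 0.83 in males (edgeR adjusted p = 0.0165). Both female calls were lost without wild-type female 3 (edgeR adjusted p = 0.173 and 0.113), and the male call without knockout male 2 or 3 (edgeR adjusted p = 0.0605 and 0.0673). The female knockout effect minus the male one was −2.10 ± 1.18 (edgeR adjusted p = 0.265), and wild-type males differed from wild-type females by −1.46 ± 0.81 (edgeR adjusted p = 0.213), without overlap. Tumour and non-tumour liver overlapped (0.91 ± 0.84, edgeR adjusted p = 0.924), and the sign turned without tumour 1. By group mean Adrb3 fell in the order wild-type females, wild-type males, tumours, knockout males and non-tumour liver, and the last 3 overlapped.

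**Figure D3:**
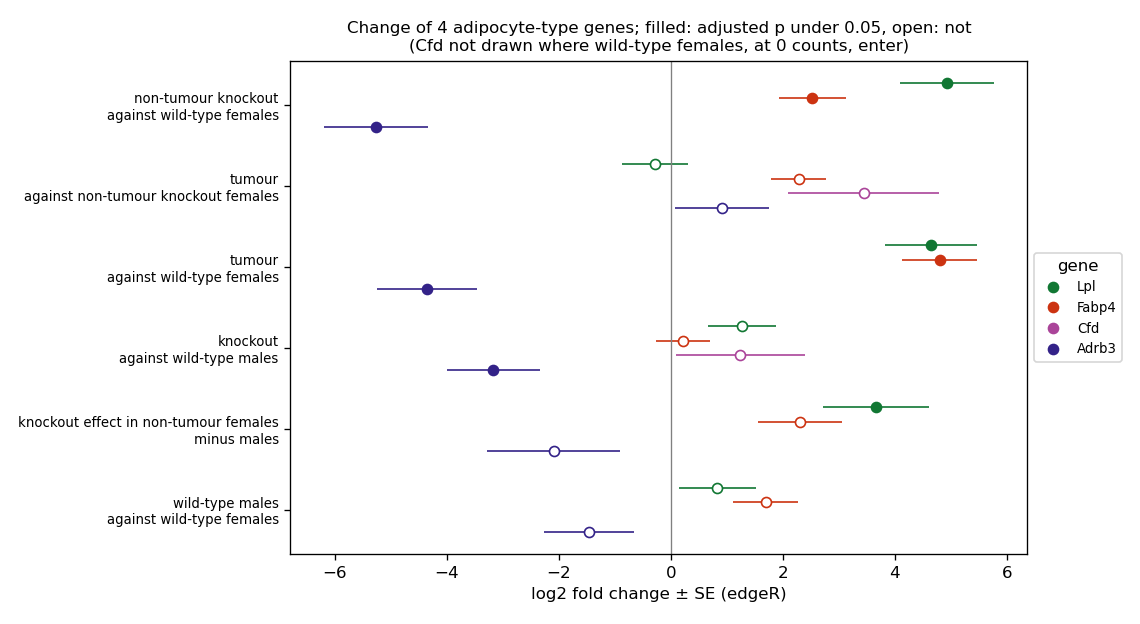
Log2 fold change with its SE (edgeR) of Lpl, Fabp4, Cfd and Adrb3 in 6 comparisons; filled symbols have an adjusted p under 0.05, and Cfd is not drawn where wild-type females, at 0 counts, enter. Adrb3 is filled and below 0 in 3 comparisons, from −5.27 to −3.17, and Lpl and Fabp4 are filled and above 0 in non-tumour tissue and in tumours against wild-type females.

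Adrb3 shares part of its locus with a noncoding gene on the other strand, Gm45470 (27228686 to 27240332, plus strand), and whether reads were counted by strand is not given in the sources used here. The reads of the pair may therefore not be fully told apart. Gm45470 had 162 and 335 counts in wild-type females 2 and 3, where Adrb3 had 339 and 775. In the 9 knockout libraries Gm45470 had 0 to 7 counts, and its log2 fold change in non-tumour females was −5.82 ± 1.19 (edgeR adjusted p = 0.0194). In wild-type males it had 10, 8 and 0 counts where Adrb3 had 165, 187 and 157, so the level of Adrb3 in males stood without it. No other member overlapped an annotated gene.

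Of 8 other adrenergic receptors 6 could be tested, and none was called in non-tumour knockout females. Some lay lower there without overlap, as Adrb3 did: Adra1a stood at 4.18 and 6.12 CPM for wild-type females 2 and 3 and at 0.892, 1.84 and 1.04 CPM for non-tumour 1, 2 and 3 (−2.03 ± 0.70, edgeR adjusted p = 0.108), and Adra2a went from 4 and 13 counts to 0 in all 3 (edgeR adjusted p = 0.113). Adra1b, the main alpha-1 receptor of mouse hepatocytes, was at 234 ± 7.29 CPM in wild-type females (n = 2) and 81.3 ± 53.1 CPM in non-tumour liver (n = 3), a difference of −1.53 ± 0.45 (edgeR adjusted p = 0.0651), and it was called lower in tumours against wild-type females (−1.48 ± 0.45, edgeR adjusted p = 0.0493). In males it rose in the knockout, from 42.6 ± 17.1 to 133 ± 33.3 CPM (n = 3 each; 1.64 ± 0.41, edgeR adjusted p = 0.0125), where Adrb3 fell. The knockout effect on Adra1b differed between non-tumour females and males by −3.16 ± 0.61 (edgeR adjusted p = 0.00529). Adra2a had 0 counts in all knockout males and was at least 2.49-fold higher in wild-type males over the floor (edgeR adjusted p = 0.0295).

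Genes of fat storage that hepatocytes can switch on were read from a list of 14. In non-tumour knockout females Pparg, the nuclear receptor that drives fat cell formation, was called higher (1.63 ± 0.34, edgeR adjusted p = 0.0211) and no other gene of the list was called. Wild-type females 2 and 3 had Pparg at 5.61 and 3.71 CPM, against 13.9, 13.2 and 16.1 CPM in non-tumour 1, 2 and 3. In tumours against wild-type females 3 of 14 were called higher and none lower: Pparg (1.81 ± 0.34), Cidec, which enlarges lipid droplets (4.67 ± 0.96, edgeR adjusted p = 0.0133), and Cidea. Cidea, a relative of Cidec, had 0 counts in wild-type females and 2, 903 and 128 counts in tumours 1, 2 and 3. Cidec was at 17.3, 180 and 189 CPM in tumours 1, 2 and 3 against 4.43 to 17.0 CPM in non-tumour liver. Tumour 1 thus stayed in the range of non-tumour liver for Cidea and just above it for Cidec, as it had the lowest Fabp4 and Cfd and the highest Lpl of the 3 tumours. The median log2 fold change of the 14 genes between tumour and non-tumour tissue was 0.97 against −0.01 over all genes, with 12 of 14 positive and none called.

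In wild-type males against wild-type females 8 of the 14 fat storage genes were called higher and Vldlr, a lipoprotein receptor, lower (−4.17 ± 0.63). Cidec was 4.45 ± 0.95 higher (edgeR adjusted p = 0.00679), and Cidea was at least 28.3-fold higher in males over the floor. In knockout males 4 of the 14 were called lower and 1, Pparg, higher (1.06 ± 0.29, edgeR adjusted p = 0.0185). Those lower included the lipid droplet coat Plin2 (−2.37 ± 0.57), the lipase Mgll (−1.68 ± 0.42) and Cidea, which went from 82, 151 and 840 counts in wild-type males 1, 2 and 3 to 0, 0 and 1 in knockout males. Cfd was not lower in those knockout males, and Lpl lay above wild type in each.

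**Figure D4:**
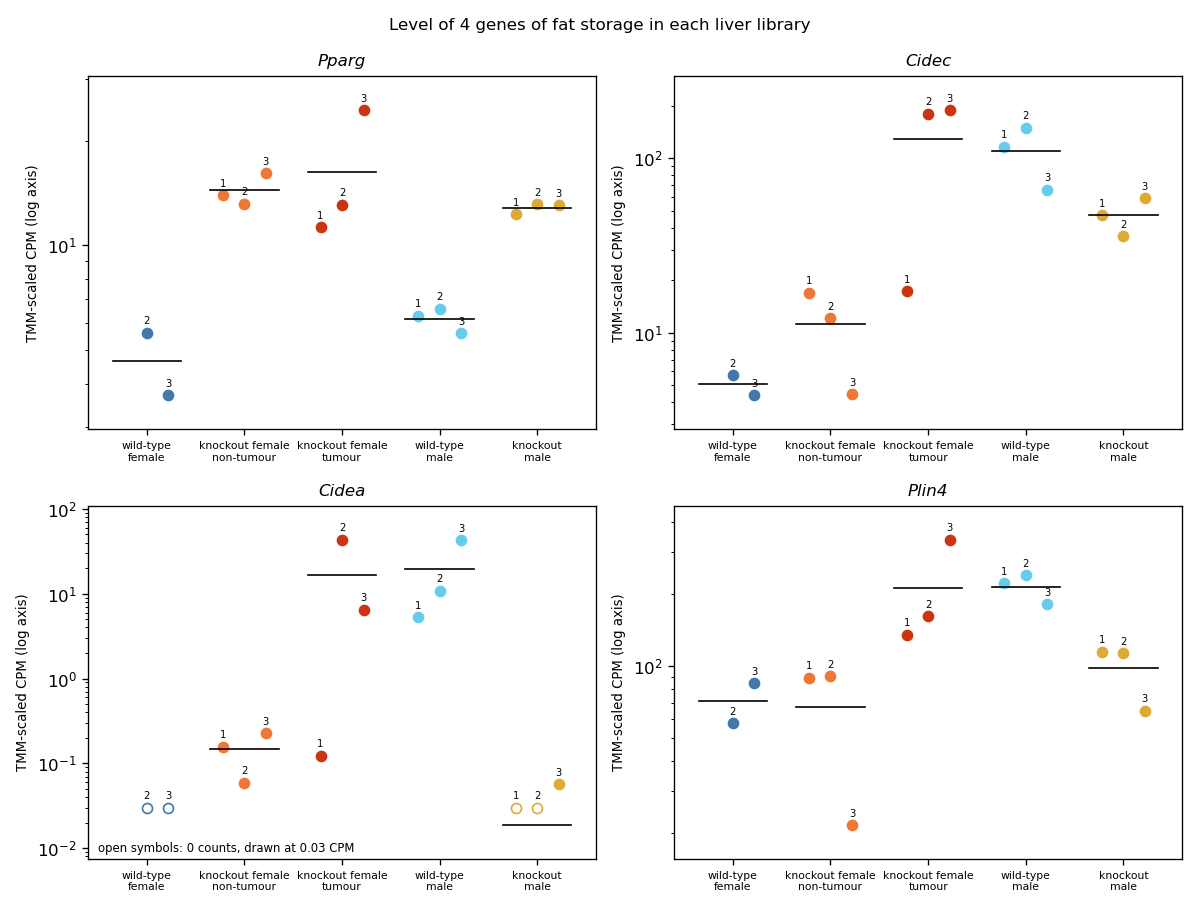
TMM-scaled CPM (log axis) of Pparg, Cidec, Cidea and Plin4 in the 14 libraries by group; numbers are replicate numbers, lines are group means and open symbols are libraries with 0 counts. Tumours 2 and 3 have Cidec at 180 and 189 CPM against 17.3 CPM in tumour 1, and wild-type males exceed wild-type females in Cidec and Cidea.

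The fixed list of 12 further white fat cell genes holds Pparg, Cidec and Plin4 as well, and 9 of its genes could be tested. Of these Pparg was called in non-tumour females, Pparg and Cidec were called in tumours against wild-type females, and none was called lower in either. Lipe, the hormone-sensitive lipase of fat cells, fell in knockout males (−1.13 ± 0.23, edgeR adjusted p = 0.00370) and was higher in wild-type males than in wild-type females (0.89 ± 0.26). Among 10 brown fat genes 6 could be tested. Elovl3, a fatty acid elongase, fell from 400 ± 121 to 52.6 ± 25.0 CPM in knockout males (SD, n = 3 each; −2.92 ± 0.57, edgeR adjusted p = 0.00339), and Ppargc1a, a coactivator of mitochondrial genes, rose there (2.62 ± 0.42). In knockout females Elovl3 went the other way, by 2.74 ± 0.75 in tumours against wild type (edgeR adjusted p = 0.0372) and by 2.76 ± 0.75 in non-tumour tissue (edgeR adjusted p = 0.0563), and the female effect minus the male one was 5.68 ± 0.95 (edgeR adjusted p = 0.00300). Elovl3 is a sex-dependent gene of mouse liver as well as of brown fat, and wild-type females 2 and 3 had it at 0.748 and 0.771 CPM.

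Per base of gene length, the scale on which genes can be compared with each other, the order of the members differed between groups. On the authors' FPKM values Adrb3 was the highest member in wild-type females (8.18 ± 3.08, n = 2), ahead of Lpl (1.07 ± 0.209) and Fabp4 (0.944 ± 0.129). In non-tumour knockout liver Lpl led (32.3 ± 12.7, n = 3), ahead of Fabp4 (5.37 ± 3.02). In tumours Lpl (26.5 ± 29.9) and Fabp4 (26.4 ± 14.3) stood level in the mean, with Lpl at 61.1, 9.82 and 8.73 FPKM and Fabp4 at 12.4, 25.9 and 41.0 FPKM in tumours 1, 2 and 3, so that their order turned between libraries. In males Cfd led in wild type (9.16 ± 6.11) and in knockout liver (19.8 ± 12.5, n = 3 each).

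The genes most like each member over the 14 libraries were found by Pearson's r of log2 CPM among 17874 genes, given as a description of libraries that share groups. For Lpl these included Tspan15 (r = 0.95) and Oit1 (0.92), and for Fabp4 Fam83a (0.91), Tgm2 (0.89) and Dnal4 (0.89). For Cfd they were Cox19 (0.96), Ndufa11 (0.91) and Nat8f5 (0.89), and for Adrb3 Bmp1 (0.97), Kyat1 (0.96) and Dot1l (0.95). No gene was among the first 3 of 2 members, and no member was among those of another. Mean levels show the likeness: Tspan15 stood at 2.63 CPM in wild-type females, 9.68 in non-tumour liver, 9.67 in tumours, and 3.34 and 4.77 in males without and with the knockout, so it was highest in the groups in which Lpl was. Nat8f5 stood at 0.111, 0.404, 1.68, 9.63 and 21.4 CPM in the same order of groups, which is the order of Cfd.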

How the data were processed

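Per the submitters' processing notes, reads were aligned with HISAT2 2.0.5 to GRCm38 and counted per gene with featureCounts 1.5.0-p3. The authors deposited whole fragment counts per library, without scaling, and FPKM values, which are per length and per a library total that is 87.2 to 128% of the column's count sum. FPKM served here only to compare genes with each other. Strand handling is not given in the sources used here.

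Counts of all 14 libraries were fitted together in edgeR 4.0.16 (R 4.3.3): filterByExpr on the 5 groups (17874 of 54532 genes kept), TMM scaling, quasi-likelihood F test, Benjamini-Hochberg over all genes tested, threshold 0.05. Of the 7 members, 4 passed the filter. Each SE comes from the fitted change and its F statistic (change over root F). Tried instead were RLE or upper-quartile scaling, no filter, 1 CPM in 3 libraries, DESeq2 1.42.0, limma-voom (limma 3.58.1), a fit of only the groups compared, a block for the replicate number, and leaving out each library. In each of 3 simulations of 17874 genes, 200 were changed, some 2-fold and some 4-fold. Of those changed 4-fold, 42% (the female non-tumour comparison with wild type), 44% (tumours with non-tumour tissue) and 41% (males) were found. Of those changed 2-fold, 2%, 7% and 5% were found in the same order, so most changes of that size would be missed.

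Replicates of each group differed beyond sampling noise. After removal of group means, same-numbered libraries of tumour and non-tumour tissue correlated at 0.286, 0.213 and 0.217 over 17874 genes. Those of unlike number were at −0.245 to −0.00088. Yet knockout male 2 and wild-type male 3, of unlike number, reached 0.250, and same-numbered males were at 0.061, −0.152 and −0.163. With so few libraries, these values cannot settle whether tumour and non-tumour tissue are paired by number. The main tests treated all libraries as unpaired. The members and gene lists were chosen with earlier results of these data known. Named are all members, up to 3 genes per list and comparison (called genes first, by p) and the 3 genes most like each member. Some genes that this rule names are not reported here. Genes outside that rule in the comparison they are given for (such as Lep, Dio2, Zic1, Ucp1, Adig, Gm45470) were chosen after their values were seen. GENCODE M21 gave the same member coordinates as the table.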

Additional observations from a re-analysis of the deposited data

Results flagged for a closer look

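The knockout effect on Lpl differed between the female and male groups by a test of the difference itself. Sex and kind of tissue (non-tumour tissue in knockout females, liver in knockout males) cannot be told apart in it. The female log2 change, in non-tumour tissue, was larger by 3.67 ± 0.95 (edgeR adjusted p = 0.0261). Group means went from 11.9 to 363 CPM in females and from 21.0 to 50.7 CPM in males. All 3 non-tumour libraries and all 3 knockout male libraries lay above their wild-type group. The value stayed between 3.31 and 3.90 over the 8 other settings and with each library left out, while the call was lost without any of 5 libraries.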

How the results depend on the processing

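For 24 member results, direction and side of the threshold held in 295 alternatives that left out a library and 161 others, of 527 in all. The genes called moved by over 1.5 times as follows. In non-tumour against wild-type females (743) they were 1739 with no filter, 1942 with DESeq2, 3397 with limma-voom and 480 with the replicate block; in tumour against non-tumour tissue (0) 338, 29 and, with the block, 1; in tumours against wild type (1718) 3030 with DESeq2 and 4599 with voom. The male comparison (3688) and that of the wild-type sexes (4137) fell to 2262 and 1824 when only the groups compared were fitted, and the difference between the sexes (1945) rose to 3039 with DESeq2 and 3333 with voom. Members called moved in tumour against non-tumour tissue (0) to 2 with no filter and 1 with DESeq2. In males (1) they were 3 and, with only those groups, 2. For the difference between the sexes (1) they were 4 with no filter and 2 with DESeq2 or only those groups. Between wild-type sexes (1) they were 3 with no filter or only those groups, and 2 with RLE, upper-quartile, 1 CPM, DESeq2 or the block. The cause was not tested. The sign turned for Fabp4 in males with voom (−0.048).

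With each library left out, in the same order of comparisons, genes called ranged from 17 to 1215, 0 to 42, 157 to 2540, 2462 to 4055 (males), 576 to 2604 (difference between the sexes) and 1290 to 4775 (wild-type sexes), and members called from 0 to 3, 0 to 2, 1 to 4, 0 to 2, 0 to 2 and 0 to 2. Tumour against non-tumour tissue ranged from −1.82 to 0.13 for Lpl and −0.021 to 1.87 for Adrb3, and Fabp4 in males from −0.25 to 0.44. A group left with 1 library is assumed to vary like the others. The block by number was fitted over all groups, although same numbers were alike only in tumour and non-tumour tissue. With wild-type females, same-numbered libraries correlated at −0.061 and −0.025 (non-tumour), 0.047 and −0.011 (tumours) and 0.0070 and 0.017 (wild-type males). That block ended the call of Fabp4 in non-tumour females (edgeR adjusted p = 0.0725). It brought in Cfd in tumours against wild type and Adrb3 between wild-type sexes (edgeR adjusted p = 0.0184 and 0.0486). RLE scaling moved the median of all genes in males from 0.11 to 0.00 and between wild-type sexes from −0.12 to −0.01. With 2 wild-type females, and 3 counts as the floor, Adipoq, Plin1 and Retn could not be compared.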
